A study of Mus musculus with 8 samples.

Results

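Actb, Gpi1, Rps4l, Nup50 and Alkbh4 were grouped as genes of basic cell upkeep. Each was measured by 1 probe in the submandibular gland of mice on 2 diets. They were picked as the probes whose identifier is a transcript of these genes, and they are 5 of the 46 gene symbols that could be given to probes, out of 60823 probes in all. They were chosen on measured values, since their differences between the diets and their values on Ctrl array 2 were already known, and those values are given here as a description, with no test. RNA came from submandibular gland, a major salivary gland, of 20-week-old male mice, with 4 samples on normal chow (Ctrl) and 4 on a high-fat diet, called DIO for diet-induced obesity. There was 1 array a sample, and the labels give neither a strain nor the time on the diet. They do not say that the samples came from separate animals, so the spread between arrays may be technical in part. The first number of the array position was 1 for all Ctrl arrays and 2 for all DIO arrays, and the effects of diet and of position cannot be told apart.

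Genes of this kind are expressed in nearly all cells and are often used as the denominator when other genes are measured. Actb encodes beta-actin, the monomer of the actin filaments under the cell membrane. Gpi1 encodes glucose phosphate isomerase, the glycolytic enzyme that turns glucose phosphate into fructose phosphate. Rps4l is annotated in RefSeq as a transcribed pseudogene and is related to the ribosomal protein gene Rps4x. Nup50 encodes a protein of the inner side of the nuclear pore that takes part in the release of imported cargo. Alkbh4 encodes a dioxygenase of the AlkB family that removes methyl groups from proteins, actin among them.

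The promoters show a sequence feature that the choice of genes did not use, the density of CG dinucleotides typical of widely expressed genes. RefSeq promoters on GRCm38.p6, from 250 bases before to 50 bases after the start of the gene, were at hand for 3 of the 5 genes. They are printed 5′ to 3′ on the strand of the gene. Capitals mark the GC box GGGCGG, the CCAAT box and the TATA box TATAAA, searched on both strands. The Gpi1 promoter lies on the minus strand at chr7:34230287-34230586. That of Nup50 lies on the plus strand at chr15:84923178-84923477, and that of Alkbh4 on the plus strand at chr5:136135895-136136194.
Gpi1: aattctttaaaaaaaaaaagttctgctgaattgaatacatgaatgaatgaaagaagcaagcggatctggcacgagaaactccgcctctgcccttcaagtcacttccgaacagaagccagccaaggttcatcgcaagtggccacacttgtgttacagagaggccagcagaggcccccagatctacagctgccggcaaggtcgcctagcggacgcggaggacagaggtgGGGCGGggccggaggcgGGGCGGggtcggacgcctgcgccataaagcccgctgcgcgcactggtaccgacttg
Nup50: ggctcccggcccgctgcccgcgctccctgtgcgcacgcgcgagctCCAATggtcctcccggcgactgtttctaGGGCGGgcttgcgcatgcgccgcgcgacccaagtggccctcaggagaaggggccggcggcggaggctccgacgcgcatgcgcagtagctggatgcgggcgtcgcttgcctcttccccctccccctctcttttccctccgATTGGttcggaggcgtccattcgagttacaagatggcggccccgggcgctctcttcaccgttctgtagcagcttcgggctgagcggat
Alkbh4: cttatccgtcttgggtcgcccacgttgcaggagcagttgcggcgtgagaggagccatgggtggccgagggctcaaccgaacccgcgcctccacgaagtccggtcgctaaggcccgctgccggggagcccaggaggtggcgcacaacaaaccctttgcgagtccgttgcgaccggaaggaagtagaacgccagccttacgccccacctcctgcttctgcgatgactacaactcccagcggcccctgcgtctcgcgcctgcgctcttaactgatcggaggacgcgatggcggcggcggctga

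The Gpi1 promoter held 21 CG dinucleotides, that of Nup50 held 36 and that of Alkbh4 held 33, where the median over 32851 promoters of the same length was 7. Of those promoters, 75.2% held fewer than Gpi1, 93.8% fewer than Nup50 and 91.4% fewer than Alkbh4. A GC box, present in 35.7% of all these promoters, was found 2 times in Gpi1 and 1 time in Nup50. A CCAAT box, present in 37.4%, was found 2 times in Nup50. The TATA box, present in 13.6%, was not found in these 3 windows. These matches describe the sequence only.

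Array Ctrl-2 stood apart from the others and enters every comparison with Ctrl, so values are given with it and without it. Across probes it correlated with the others at 0.941 to 0.958, while these correlated among themselves at 0.981 to 0.990. On it, 13.3% of the probes lay over 2-fold from the mean of the other Ctrl arrays. The same share was 2.85% to 4.61% for the other Ctrl arrays. Over the 8 arrays, 81.2% to 91.2% of the spots were well above background, and the signal had a 75th percentile of 239.8 to 321. A level below is the log2 signal minus that percentile, so 0 is the percentile itself. Levels of different probes depend on how well each probe binds and are not set against each other.

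Actb, the gene most often used as a reference, was the least even of the 5 with all arrays, but not without Ctrl array 2. Its level was 2.38, 0.86, 1.95 and 2.08 on Ctrl arrays 1 to 4 and 2.38, 1.98, 2.16 and 1.96 on DIO arrays 1 to 4. Ctrl array 2 was the lowest of all, and the other Ctrl arrays lay within or close to the DIO range. The Actb signal before scaling was 495 on that array and 1084 to 1385 on the other 7. Its scaled level was 2.42-fold below the mean of the other Ctrl arrays. A smaller deviation on this array was found for 91.7% of all probes tested. Actb averaged 1.82 ± 0.66 in Ctrl and 2.12 ± 0.19 in DIO (SD, n = 4 each), and the Ctrl mean was 2.14 ± 0.22 (SD, n = 3) without Ctrl array 2. Related actin genes encode near-identical proteins, and whether the probe also binds them was not checked.

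Gpi1, the glycolytic member, ranged less than Actb with all arrays, but not without Ctrl array 2. Its level was 7.38, 6.86, 7.25 and 7.40 on Ctrl arrays 1 to 4 and 7.60, 7.28, 7.09 and 7.39 on DIO arrays 1 to 4. Ctrl array 2 was again the lowest, by less than for Actb, and the groups overlapped. The whole range over 8 arrays was 1.67-fold, beside 2.87-fold for Actb. Without Ctrl array 2 it was 1.42-fold, beside 1.35-fold for Actb. Gpi1 averaged 7.22 ± 0.25 in Ctrl and 7.34 ± 0.21 in DIO (SD, n = 4 each).

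Rps4l, the ribosomal pseudogene, deviated the other way on Ctrl array 2. Its level was 1.92, 2.20, 1.47 and 1.37 on Ctrl arrays 1 to 4 and 1.40, 1.71, 1.88 and 1.46 on DIO arrays 1 to 4. Ctrl array 2 was the highest of the 8, followed by Ctrl array 1 and DIO array 3, so both groups held high and low arrays. Rps4l averaged 1.74 ± 0.39 in Ctrl and 1.61 ± 0.22 in DIO (SD, n = 4 each). Whether its probe also binds the related Rps4x transcript was not checked.

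Nup50, the nuclear pore gene, was also highest on Ctrl array 2. Its level was 0.41, 1.25, 0.22 and 0.63 on Ctrl arrays 1 to 4 and 0.30, 0.59, -0.0037 and 0.52 on DIO arrays 1 to 4. The level on Ctrl array 2 was 1.78-fold the mean of the other Ctrl arrays, which lay at 0.22 to 0.63 beside the DIO range of -0.0037 to 0.59. Nup50 averaged 0.63 ± 0.45 in Ctrl and 0.35 ± 0.27 in DIO (SD, n = 4 each).

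Alkbh4, the demethylase gene, had the smallest range of the 5 with percentile scaling and all arrays, 1.58-fold over the 8 arrays. Its level was -0.043, 0.34, -0.20 and 0.15 on Ctrl arrays 1 to 4 and -0.084, 0.037, -0.21 and -0.32 on DIO arrays 1 to 4. Ctrl array 2 was the highest and DIO array 4 the lowest, and the groups overlapped between them. Alkbh4 averaged 0.063 ± 0.23 in Ctrl and -0.15 ± 0.16 in DIO (SD, n = 4 each). Without Ctrl array 2 its range was 1.39-fold, and that of Actb was smaller, at 1.35-fold. With all arrays and quantile normalization the range was 1.61-fold for Alkbh4 and 1.54-fold for Gpi1. With cyclic loess these were 1.66-fold and 1.46-fold.

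**Figure D1:**
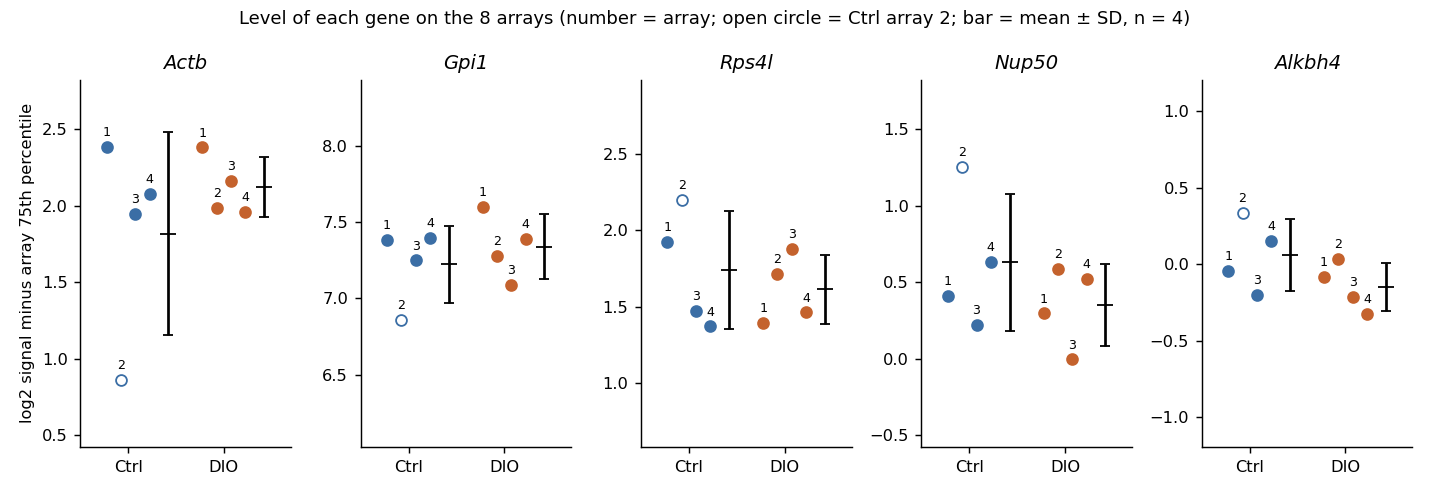
Level of each gene on the 8 arrays, as log2 signal minus the 75th percentile of the array, with 1 panel a gene and the same height of the log2 axis in each. Points are arrays, numbered as in the labels, the open circle is Ctrl array 2 and bars are the mean ± SD of 4 arrays. Ctrl array 2 is the lowest point for Actb (0.86) and Gpi1 (6.86) and the highest for Rps4l (2.20), Nup50 (1.25) and Alkbh4 (0.34).

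With percentile scaling the 5 genes thus had their extreme value over the 8 arrays on Ctrl array 2. Actb and Gpi1 were low there and Rps4l, Nup50 and Alkbh4 high. With quantile normalization the lowest Gpi1 level was 7.03, on a DIO array, and the lowest Ctrl level was 7.19. With cyclic loess these were 7.06 and 7.19. Against the mean of the other Ctrl arrays, the percentile-scaled level on Ctrl array 2 differed by -1.27 for Actb and -0.48 for Gpi1. It differed by 0.61 for Rps4l, 0.83 for Nup50 and 0.37 for Alkbh4. Of all probes tested, 62.1% deviated less on this array than Gpi1, 71.3% less than Rps4l, 81.7% less than Nup50 and 51.4% less than Alkbh4. Markers of other cell types could be named for few genes. They covered 1 of 4 plasma and B cell, 1 of 4 T cell and macrophage and 2 of 4 nerve markers, and 0 of 7 acinar and 0 of 7 duct markers, so the identity of the gland could not be checked. Myoepithelial, adipocyte, and endothelial and stromal markers were each covered by 0 of 4. Mzb1, a plasma cell protein, stood at 2.62 on Ctrl array 2, between -1.10 and -1.05 on the other Ctrl arrays and between -1.25 and 1.15 on the DIO arrays. Its mean was 0.56 higher in DIO with all arrays and 1.48 higher without Ctrl array 2. Mbp, a myelin protein, stood at 0.62 on Ctrl array 2, against 0.042 to 0.25 in the other Ctrl and -0.40 to 0.53 in the DIO arrays. Chgb, of neuroendocrine granules, stood at 0.17, against -2.39 to -0.89 in the other Ctrl and -2.65 to 0.29 in the DIO arrays. Il2, a T cell cytokine, stood at -3.73, against -3.53 to -3.07 and -3.36 to -2.85. With all arrays DIO minus Ctrl was -0.25 for Mbp, -0.51 for Chgb and 0.30 for Il2. Without Ctrl array 2 it was -0.13, -0.032 and 0.20. The DIO arrays thus varied in these markers too, and one of them was above Ctrl array 2 for Chgb. The part of cell makeup in the values of the 5 genes was not tested. In whole gland, fewer cells of a type and less RNA per cell cannot be told apart.

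The spread within an array was small beside the spread between arrays. Each probe was spotted 10 times, of which 8 to 10 spots per array were left after spots marked as outliers were removed, and each of these was well above background. The SD among the spots of a probe was 0.025 to 0.069 on the log2 scale, and the standard error of an array's value was at most 0.022. Between arrays the SD was 0.22 to 0.48 over the 5 genes, and 0.16 to 0.23 without Ctrl array 2.

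As references, Gpi1 and Alkbh4 were the steadier members and Actb the least steady with all arrays. Over 8 arrays the SD of the level was 0.48 for Actb, 0.37 for Nup50, 0.30 for Rps4l, 0.22 for Gpi1 and 0.22 for Alkbh4. The median SD over all 54187 probes tested was 0.27. Among probes within 0.5 of the same mean level, 82.0% were steadier than Actb, 71.0% steadier than Nup50, 58.0% steadier than Rps4l, 40.5% steadier than Alkbh4 and 34.7% steadier than Gpi1. Among the 44 named genes tested, 36 had a smaller SD than Actb, 17 a smaller one than Gpi1 and 16 a smaller one than Alkbh4.

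Without Ctrl array 2 the order changed. The SD was 0.19 for Actb, 0.23 for Nup50, 0.23 for Rps4l, 0.16 for Gpi1 and 0.16 for Alkbh4. The share of probes of similar brightness that were steadier was then 50.2% for Actb, 64.9% for Nup50, 64.2% for Rps4l, 43.7% for Alkbh4 and 32.5% for Gpi1. Within DIO alone, where that array plays no part, the SD was 0.16 for Alkbh4, 0.19 for Actb, 0.21 for Gpi1, 0.22 for Rps4l and 0.27 for Nup50. Differences between these SDs were not tested.

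**Figure D2:**
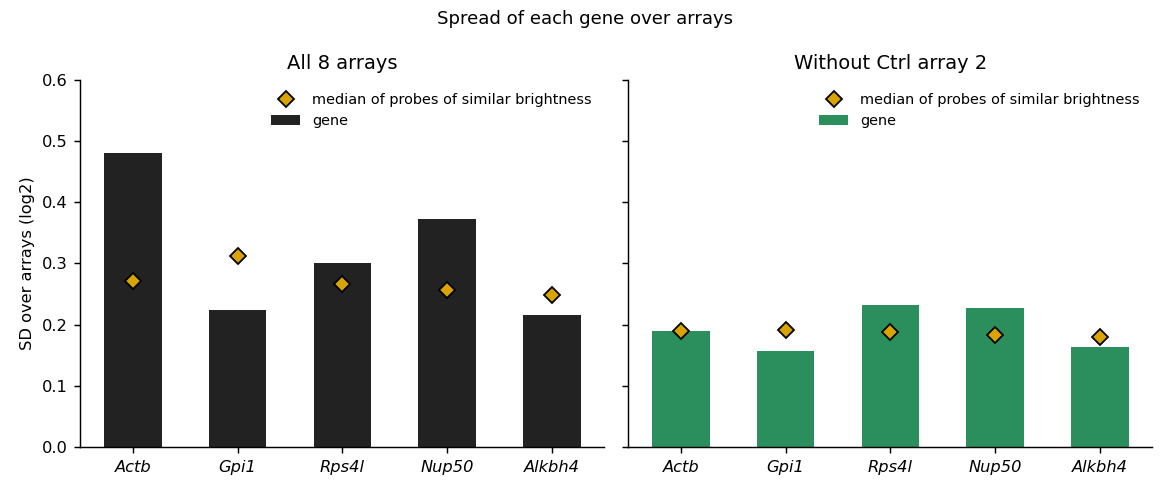
SD of the log2 level of each gene over all 8 arrays (left) and over the 7 without Ctrl array 2 (right). Bars are the gene and diamonds the median SD of probes with a mean level within 0.5 of it; Actb is at 0.48 against a median of 0.27 on the left and at 0.19 against 0.19 on the right.

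A reference gene is used as a ratio. With percentile scaling, ratios between the 5 genes varied more where an upward and a downward gene met on Ctrl array 2. The log2 ratio of Actb to Nup50 ran from -0.39 to 2.16, a 5.88-fold span, with an SD of 0.81. It was -0.39 on Ctrl array 2, and the other 7 arrays lay between 1.40 and 2.16. The ratio of Actb to Rps4l had an SD of 0.70 and that of Actb to Alkbh4 one of 0.64. The ratio of Actb to Gpi1, both low on that array with percentile scaling, had an SD of 0.33, and of 0.48 with quantile normalization. Under quantile normalization the ratios of Gpi1 to Rps4l, Nup50 and Alkbh4 varied less than that, with SDs of 0.43, 0.37 and 0.24. The pattern by direction thus depended on the scaling. With percentile scaling and all arrays the steadiest pair was Nup50 with Alkbh4, at an SD of 0.24 and a 1.63-fold span. With quantile normalization Gpi1 with Alkbh4 was as steady, both at 0.24. Without Ctrl array 4, Rps4l with Alkbh4 was steadier than Nup50 with Alkbh4, at 0.20 against 0.26.

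Without Ctrl array 2 the SD of the 10 ratios lay between 0.18 (Actb to Gpi1) and 0.38 (Rps4l to Nup50). Averaged over its 4 ratios, the SD was then 0.23 for Alkbh4, 0.23 for Gpi1, 0.25 for Actb, 0.28 for Nup50 and 0.32 for Rps4l. With all arrays these averages were 0.38, 0.43, 0.62, 0.48 and 0.46. The mean of the 5 genes had an SD of 0.092 over 8 arrays and 0.098 without Ctrl array 2. It was 2.29 ± 0.11 in Ctrl and 2.26 ± 0.073 in DIO (SD, n = 4 each). On Ctrl array 2 the genes deviated in opposite directions, which offset each other in the mean. The genes were chosen with those deviations known, so the SD of the mean describes these 5 genes only.

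**Figure D3:**
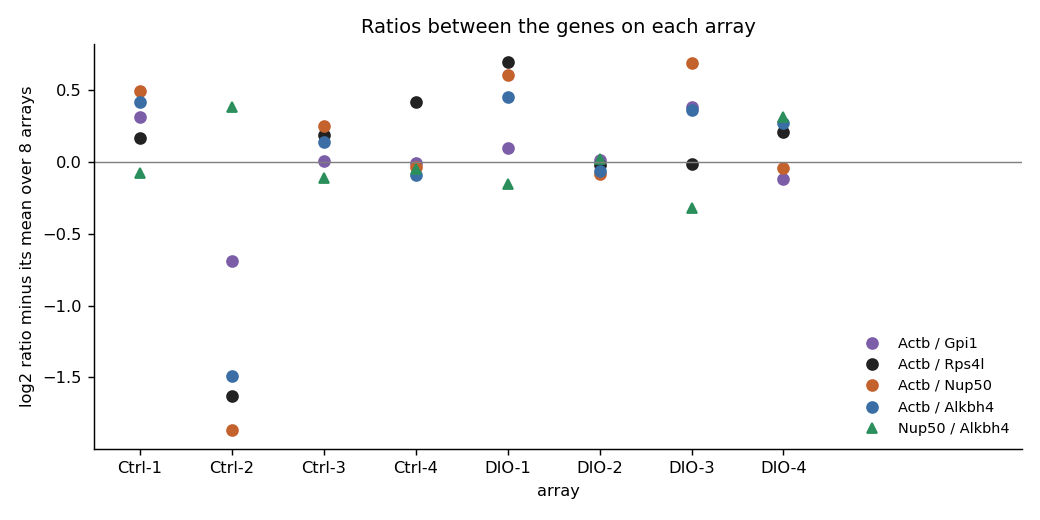
Log2 ratio of Actb to each of the other 4 genes (circles) and of Nup50 to Alkbh4 (triangles) on each array, each minus its mean over the 8 arrays. The 4 ratios of Actb are lowest on Ctrl array 2, where the Actb to Nup50 ratio was -0.39 before centring.

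DIO and Ctrl were compared to see whether these genes hold their level in the obese gland. With all arrays Actb was 1.23-fold and Gpi1 1.08-fold of Ctrl in DIO, while Rps4l was 0.916-fold, Alkbh4 0.865-fold and Nup50 0.824-fold. The groups overlapped for each, so 0 of 5 separated, where 2.86% of all probes tested did. On the log2 scale the difference, DIO minus Ctrl, was 0.30 for Actb with a 95% interval of -0.38 to 0.99 from the limma fit over all probes. For Gpi1 it was 0.12 (-0.26 to 0.49), and for Rps4l -0.13 (-0.60 to 0.35). For Nup50 it was -0.28 (-0.81 to 0.26) and for Alkbh4 -0.21 (-0.55 to 0.13). The intervals are given as the error of each difference and not as a test, since the genes were chosen on these values.

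Without Ctrl array 2 the difference was smaller in size for each of the 5 genes. It was -0.015 for Actb (-0.37 to 0.35), -0.0042 for Gpi1 (-0.33 to 0.32) and 0.025 for Rps4l (-0.39 to 0.44), so that Actb, Gpi1 and Rps4l changed sign. Nup50 was at -0.072 (-0.48 to 0.33) and Alkbh4 at -0.12 (-0.43 to 0.20). The widest of these intervals, that of Rps4l, ran from 0.764-fold to 1.36-fold on the linear scale. No group separation appeared in this set either (0 of 5, where 4.63% of all probes did). Nup50 and Alkbh4 were lower in DIO under each of the 15 other settings tried, from -0.42 to -0.072 and from -0.30 to -0.12. The settings share arrays and some cannot alter the difference, so this is no independent support. The Gpi1 difference also changed sign with quantile normalization and cyclic loess. These values do not show that a gene keeps its level.

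**Figure D4:**
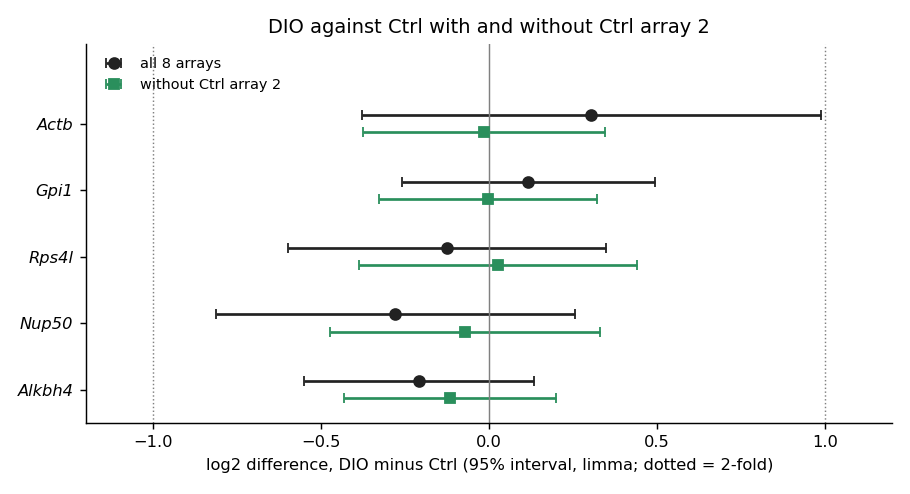
Log2 difference, DIO minus Ctrl, of each gene with its 95% interval from limma, for all 8 arrays (circles) and without Ctrl array 2 (squares); dotted lines mark 2-fold. Actb is at 0.30 with all arrays and at -0.015 without Ctrl array 2.

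Gpi1 is the only one of 20 glycolysis genes listed, and Actb the only one of 22 actin cytoskeleton genes, with a named probe. The same holds for Rps4l among 13 ribosome genes, Nup50 among 16 nuclear pore genes and Alkbh4 among 9 AlkB family genes, and of 19 common reference genes 2 were named, Actb and Gpi1. Other genes of these lists may lie among the unnamed probes. The array also carries control probes for the glycolytic genes Gapdh and Pgk1, at the 3′ and 5′ part of each transcript, which the choice of genes did not use. On the 3′ probe, Gapdh was at 6.16 ± 0.25 in Ctrl and 6.21 ± 0.24 in DIO (SD, n = 4 each), a difference of 0.053 (exact permutation p = 0.771, two-sided). On the 5′ probe the Gapdh difference was 0.043 (exact permutation p = 0.857). Both turned to a lower level in DIO without Ctrl array 2, at -0.054 and -0.12. Pgk1 was at 5.36 ± 0.42 in Ctrl and 5.22 ± 0.26 in DIO (SD, n = 4 each) on its 3′ probe (exact permutation p = 0.629). The difference was -0.14, and -0.22 without Ctrl array 2. On its 5′ probe the Pgk1 difference was -0.39 (exact permutation p = 0.171), and -0.41 without Ctrl array 2. Adjusted over these 4 probes the smallest p was 0.686 by the exact permutation test, where 70 arrangements allow no raw p below 0.0286.

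With percentile scaling the Gapdh probes, like Gpi1, were lowest on Ctrl array 2. The 3′ probe stood at 5.84 there and between 5.96 and 6.53 on the other arrays, and the 5′ probe at 3.36 against 3.61 to 4.20. The Pgk1 3′ probe, at 5.11, lay within the 4.94 to 5.91 of the other arrays, and so did the 5′ probe, at -2.17 within -2.73 to -1.57.

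The effect of a reference on the rest of the array was worked out by subtraction. The level of a gene, in place of the 75th percentile, was taken from every probe. With the percentile the median difference over all probes was -0.023, and 2441 probes (4.5%) had an unadjusted limma p below 0.05, of which 28.1% were higher in DIO. With Actb the median was -0.33 and 10.6% of probes were higher in DIO. Then 702 probes (1.3%) had an unadjusted limma p below 0.05, 34 higher and 668 lower. With Gpi1 the median was -0.14, and 178 of 1385 such probes (2.56% of all) were higher. Rps4l, Nup50 and Alkbh4 turned the median the other way, to 0.10, 0.26 and 0.19. The share of probes with an unadjusted limma p below 0.05 was 1.75%, 1.73% and 3.27%, and 61.6%, 85.9% and 89.2% of them were higher in DIO. Subtracting a reference shifts the difference of each probe measured on every array by the reference gene's own difference. The shifts of the median and of the directions follow by arithmetic and are no separate result. With all arrays the sign of the median difference was thus opposite to the sign of the reference gene's own difference between the diets. This did not hold without Ctrl array 2 for Actb and Gpi1, whose own differences and medians were all slightly below 0.

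With the mean of the 5 genes the median difference was 0.016 and 1688 probes (3.12%) had an unadjusted limma p below 0.05, of which 41.6% were higher. Without a replicate block, none of the 7 references gave a probe past an adjusted limma p of 0.05 with all arrays. Without Ctrl array 2 the median differences were -0.0043 with Actb, -0.015 with Gpi1, -0.044 with Rps4l, 0.053 with Nup50 and 0.098 with Alkbh4. In that set 29 probes (0.0535%) passed an adjusted limma p of 0.05 with Rps4l as the reference and 0 with each of the other 6 references. The prior degrees of freedom that limma estimated were 47.1 in that Rps4l fit and 3.13 with the percentile, so limma took the variances of the probes as nearly equal with Rps4l, and the 29 calls are not relied on. At an unadjusted limma p below 0.05 the shares were 4.09% with the percentile, 1.57% with Actb, 1.98% with Gpi1, 2.61% with Rps4l, 1.45% with Nup50, 2.2% with Alkbh4 and 2.8% with the mean of the 5. A single reference adds its own array error to every probe. The median standard error of a difference over 8 arrays was 0.18 with the percentile and 0.19 with the mean of the 5. It was 0.39 with Actb, 0.33 with Nup50, 0.30 with Rps4l, 0.24 with Gpi1 and 0.24 with Alkbh4. Without Ctrl array 2 it was 0.16 with the percentile and 0.18 with the mean of the 5. In that set it was 0.23 with Actb, 0.26 with Nup50, 0.28 with Rps4l, 0.21 with Gpi1 and 0.22 with Alkbh4.

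**Figure D5:**
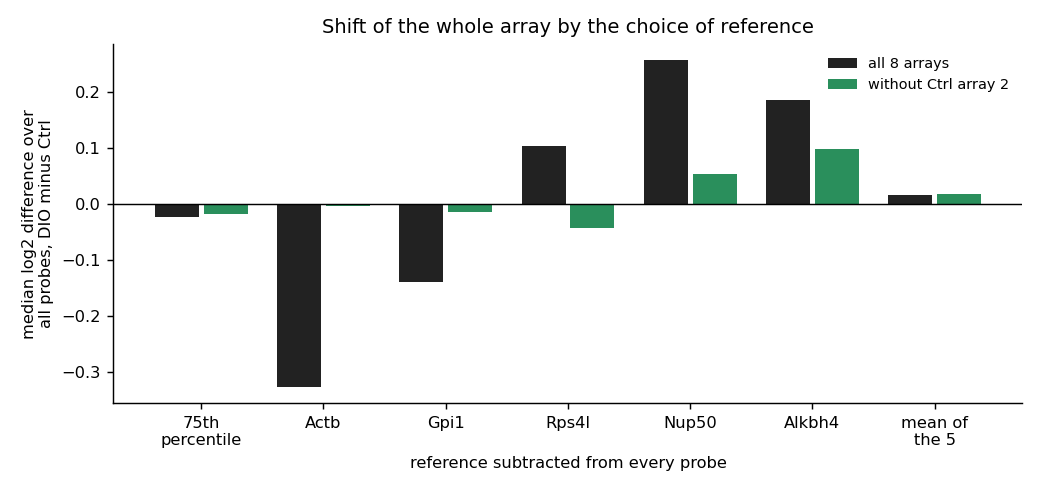
Median log2 difference over all tested probes, DIO minus Ctrl, when the 75th percentile, each gene or the mean of the 5 genes is subtracted from every probe, with all 8 arrays (dark bars) and without Ctrl array 2 (green bars). Actb gives -0.33 and Nup50 0.26 with all arrays, and the mean of the 5 gives 0.016. The shifts restate the references' own differences between the diets.

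Among the 43 other named genes tested, likeness to each of the 5 was taken as the SD over 8 arrays of their log2 ratio, with no test. Uhrf1bp1l followed Actb most closely, at an SD of 0.15, then Hyal3 at 0.24, where the median of the 43 was 0.53. Olfr166 and Dnajc11 followed Gpi1 at 0.092 and 0.10, against a median of 0.34. Gamt and Anxa8 were nearest to Rps4l at 0.19 and 0.27, against 0.40. Lhfp and Cep41 were nearest to Nup50 at 0.21 and 0.22, against 0.48. Cav2 and Taf1a were nearest to Alkbh4 at 0.13 and 0.14, against 0.35. Without Ctrl array 2 the SD was 0.16 for Actb with Uhrf1bp1l and 0.26 with Hyal3, where the level of Actb alone had an SD of 0.19. It was 0.097 for Gpi1 with Olfr166, and 0.20 for Rps4l both with Gamt and with Anxa8. No median over the named genes was taken in that set.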

How the data were processed

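The authors deposited a scanner file for each of the 8 one-colour arrays. Per the file headers, spot intensity was extracted with Agilent Feature Extraction, version 11.0.1.1 in the submitters' processing notes. Per the file headers, that program removed the background and a spatial trend from the deposited processed intensity, which has had no scaling between arrays. Per the labels' protocols, ribosomal RNA was depleted, and random priming gave Cy3-labelled cRNA. Other columns used are flags of 0 or 1 for outlying, saturated or well-detected spots, per the file headers. No spot was saturated.

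From these values, log2 of the processed signal minus the array's 75th percentile over non-control spots was taken. Outlier spots were removed and the spots of a probe averaged. A probe was tested if well above background on at least 4 arrays and measured on at least 3 of each group, which kept 54187 of 60823. Probes were named through RefSeq accessions (annotation GRCm38.p6). Groups were compared with limma 3.58.1 in R 4.3.3 (files read with version 1.17.8 of data.table), two-sided, adjusting p over every probe tested by Benjamini-Hochberg. Plots used matplotlib 3.10.9 in Python 3.11.15. Control probes were compared by exact permutation over arrays, a test added after the data were seen. On simulated data with 200 changed probes among 54133, 31% were recovered at 2-fold, 89% at 4-fold and 94.5% at 8-fold for this comparison, with 5, 11 and 15 false calls. The simulated noise was normal and independent between probes, with the real spreads assigned to probes at random. It held no deviant array such as Ctrl array 2, so these figures apply to such noise only.

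The members and lists were chosen with earlier results of these data known. Beside the members, the text names the 2 symbols nearest to each, the measured genes of the lists, and the Gapdh and Pgk1 control probes. Alternatives covered quantile, cyclic loess and detected-probe scaling, normexp with an offset of 50 on the median signal, outlier spots, dim-probe filters, a replicate block, eBayes with trend and robust settings, and each array left out.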

Additional observations from a re-analysis of the deposited data

Results flagged for a closer look

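Among 38 sets of 4 arrays examined, covering levels and ratios in each group, 2 had a single array far from the rest by Dixon's 95% critical value, where chance gives about 1 in 20. The 2 found are thus about as many as chance gives over 38 sets, and the genes were chosen with their values on Ctrl array 2 known. Both are ratios on Ctrl array 2. The log2 ratio of Actb to Rps4l was -1.33 there, against 0.46 to 0.71 on the other Ctrl arrays. The log2 ratio of Nup50 to Alkbh4 was 0.91 there, against 0.42 to 0.48. No level of a single gene among the 5 was past that value in either group.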

How the results depend on the processing

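When an array was left out, the differences, DIO minus Ctrl, ranged from -0.015 to 0.49 for Actb, -0.0042 to 0.20 for Gpi1, -0.25 to 0.025 for Rps4l, -0.42 to -0.072 for Nup50 and -0.30 to -0.12 for Alkbh4. The SD over arrays ranged from 0.19 to 0.52 for Actb and 0.23 to 0.40 for Nup50. In the limma fits, 0 probes passed an adjusted p of 0.05 in each case, and 1321 (without DIO array 1) to 4396 (without Ctrl array 3) had an unadjusted p below 0.05; without DIO array 3 it was 1613. Without Ctrl array 2, Rps4l as the reference gave 29 probes past the adjusted limma p, which are not relied on either. The Gapdh control differences turned to -0.054 and -0.12, an alternative chosen after the data were seen.

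The labels number the arrays 1 to 4 in both groups. Deviations of same-numbered arrays correlated at 0.062 to 0.30 across probes, with number 4 the lowest. Arrays 1 to 3 correlated best with their own number, a hint from the data and not the design, but number 4 did not, so the numbers were not taken as pairs. With the replicate number as a block, 4522 probes had an unadjusted limma p below 0.05, 0 an adjusted one. With the block and Actb, Gpi1, Rps4l, Nup50, Alkbh4 or the mean of the 5 as the reference, the unadjusted limma counts were 3507, 3447, 2669, 7697, 5918 and 4450. The adjusted counts were 63 with Actb, 343 with Rps4l, 1 with each of Gpi1, Nup50 and Alkbh4, and 0 with the mean. In the Rps4l fit limma gave all probes the same variance, and in the Actb fit its prior degrees of freedom were 41.0, against 2.71 with the percentile. The error of a single reference is shared by every probe, and the 63 and 343 calls are not relied on. Of 198 recomputed values of the 5 genes and the counts, 180 stayed within 1.5 times or 1 SD of the reported value. The 180 include differences of Actb, Gpi1 and Rps4l that changed sign. They also include differences that the replicate block and the trend and robust settings cannot alter. The tally is therefore no measure of how firm the differences are. The number of arrays limits the precision of these values.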
